A study of Mus musculus with 46 samples.

Results

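The 8 CEBPa peak lists described here came from chromatin immunoprecipitation of individual male mouse livers 27 h after an injection, and they were chosen by the factor and time in their titles from the 46 lists of the series. The TCPOBOP group was 4 livers (D1 to D4) of CD-1 mice, aged 8 weeks, given 3 mg/kg TCPOBOP. The vehicle group was 4 livers (C1 to C4) of the same sex, strain and age given 1% DMSO in corn oil. The labels name no genotype other than the outbred CD-1 strain, and each list came from 1 liver. CEBPb and RXR (RXRa) were measured in the same 8 livers, and CEBPa was also measured at 3 h in 6 other animals, 3 per treatment, aged 7 weeks. RXR was measured at 3 h in yet other livers, 3 per treatment, of mice aged 8 weeks. The 4 input controls, chromatin without immunoprecipitation, came from 3 h livers of mice aged 7 weeks, 2 per treatment. Peaks overlapping by at least 1 bp over the 8 lists were merged, which gave 63546 regions, and each region was scored by the livers with a peak there.

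CEBPa is a basic leucine zipper transcription factor of hepatocytes that binds DNA as a dimer and keeps metabolic and secretory genes of the adult liver active. CEBPb, a close relative, recognises much the same DNA sequence, can pair with CEBPa, and is known for its part in the acute phase response and in liver regeneration. TCPOBOP is a ligand of the mouse nuclear receptor CAR, which binds DNA together with RXR, induces drug-metabolising enzymes and makes the liver grow. The comparison addresses whether activation of CAR changes where CEBPa sits on chromatin.

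CEBPa lists were about as alike between treatments as within a treatment. A peak was present in all 8 livers at 12936 regions, in all 4 TCPOBOP livers and no vehicle liver at 23, and in all 4 vehicle livers and no TCPOBOP liver at 131. The latter classes are called gained and lost below, by definition and not by a test. They made up 0.0362% and 0.206% of the 63546 regions. At the gained regions RXR was called at 52.2% of sites after TCPOBOP and 32.6% after vehicle, against 18.2% and 18.5% over all regions. In other livers at 3 h the RXR rates at these regions were 52.2% and 40.6%, and the groups overlapped. At 27 h CEBPb was called at 95.7% and 78.3% of the gained regions. Its mean rate was also higher after TCPOBOP over all regions, at 62.4% and 57.1%, where the groups overlapped. For CEBPb the treatments overlapped at the gained regions of equal-length lists. They did not overlap at the regions gained without D4, at 87.5% and 62.4%. At regions occupied in every liver, peak width differed between treatments at 2 regions past the threshold.

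The vehicle lists held 26145, 35193, 35663 and 30936 CEBPa peaks in C1 to C4. The TCPOBOP lists held 29066, 28818, 28825 and 20396 in D1 to D4. The liver D4 stood apart with the shortest list, and the other TCPOBOP lists lay within the range of the vehicle lists. The means were 26776 ± 4255 peaks after TCPOBOP and 31984 ± 4436 after vehicle (SD, n = 4 each), a ratio of 0.835 with an exact permutation p of 0.2 on the log2 scale (two-sided; 0.35 when adjusted over 7 list measures). Without D4 the log2 difference moved from -0.26 to -0.14 (exact permutation p = 0.4). No read numbers come with the lists, so a shorter list cannot be told apart from a shallower library, and in bulk liver chromatin fewer cells with a bound site and less binding per cell cannot be told apart either.

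The median peak width of the TCPOBOP livers lay within the range of the vehicle livers. The median CEBPa peak was 268, 265, 262 and 266 bp wide in D1 to D4 and 261, 265, 266 and 277 bp in C1 to C4 (exact permutation p = 0.83, two-sided). The lists covered 7.55 ± 1.21 Mb after TCPOBOP and 9.12 ± 1.30 Mb after vehicle (SD, n = 4 each; exact permutation p = 0.171, adjusted p = 0.35), and the log2 difference of -0.28 was -0.15 without D4. Peaks that lay on a peak of an input control made up 0.524% to 0.775% of a list. At 3 h the log2 ratio of list lengths was -0.06 against -0.26 at 27 h, and the difference of -0.20 did not pass an exact permutation of the time labels within treatments (p = 0.434, 1225 assignments). Time goes with age and flow cell in the labels, and these cannot be told apart.

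Most CEBPa peaks lay on a CEBPb peak of the same liver. The share was 86.8%, 80.1%, 73.7% and 83.4% in the vehicle livers C1 to C4. It was 87.6%, 88.2%, 86.2% and 94.8% in the TCPOBOP livers D1 to D4. The ranges met only at C1, which lay between D3 and D1. The means of 89.2% ± 3.82 and 81.0% ± 5.59 (SD, n = 4 each) differed with an exact permutation p of 0.0571 (two-sided, adjusted p = 0.2), and without D4 the difference fell from 8.25 to 6.39 percentage points (exact permutation p = 0.114). With CEBPb peaks moved by 100 kb, the share was 1.97% and 1.67%. When every list was cut to the same number of widest peaks the shares were 91.1% ± 0.890 and 89.8% ± 1.11, a difference of 1.24 points (SD, n = 4 each; exact permutation p = 0.143). The difference with lists of equal length was thus smaller than that with full lists.

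The relation of both CEBP lists within a liver differed in the same way. There were 1.74, 1.34, 1.10 and 1.45 CEBPb peaks per CEBPa peak in C1 to C4. There were 1.77, 1.93, 1.59 and 2.40 in D1 to D4. The TCPOBOP values lay above every vehicle value except that of C1, which D3 did not reach. The mean ratio was 1.37 times as high after TCPOBOP (exact permutation p = 0.0571, two-sided, adjusted p = 0.2), and the log2 difference was 0.45, or 0.34 without D4 (exact permutation p = 0.114). Seen from the other factor, 47.2% ± 6.14 of CEBPb peaks held a CEBPa peak after TCPOBOP and 58.5% ± 7.00 after vehicle (SD, n = 4 each). The groups overlapped, at 39.5% to 54.1% and 49.8% to 66.9%, with D4 the lowest. This share also depends on the lengths of both lists and was not tested. RXR peaks held a CEBPa peak at 27.2% and 28.0%. With 4 against 4 livers the smallest two-sided p of the exact permutation test is 0.0286, and with 1 liver left out it is 0.0571.

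**Figure D1:**
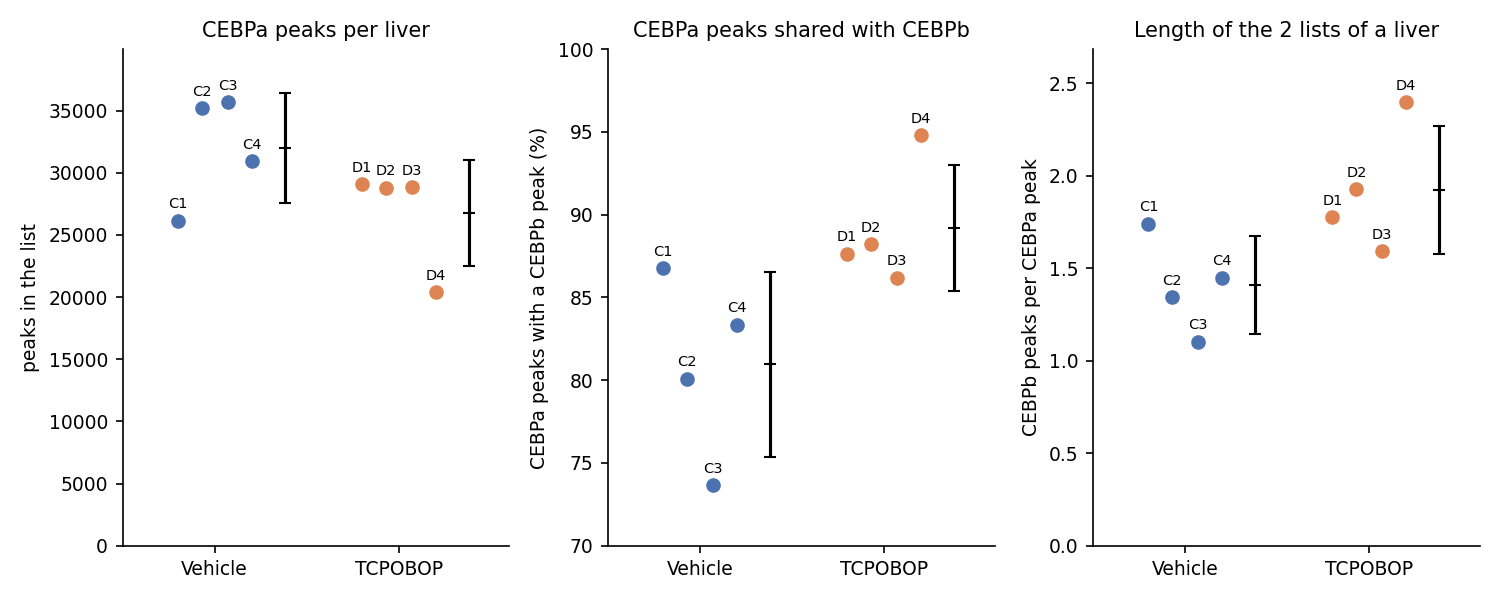
CEBPa peaks per liver (left), the percent of CEBPa peaks with a CEBPb peak of the same liver (middle, axis from 70%) and CEBPb peaks per CEBPa peak (right), with 1 point per liver and bars for the mean ± SD of 4 livers. D4 has 20396 peaks and the highest value in the other panels, 94.8% and 2.40, and C1 has the vehicle values nearest to the TCPOBOP livers.

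RXR peaks shared fewer places with CEBPa and did not separate the treatments. An RXR peak of the same liver lay on 26.5%, 26.8%, 21.6% and 33.0% of CEBPa peaks in C1 to C4. The values were 33.1%, 27.3%, 22.5% and 34.9% in D1 to D4, and the groups overlapped over most of their range. The means were 29.5% ± 5.67 and 27.0% ± 4.64 (SD, n = 4 each), with p = 0.429 in a two-sided exact permutation test, and the difference of 2.46 percentage points was 0.656 without D4. A CEBPa peak at 3 h, from other animals, was present at 89.2% ± 3.42 of the TCPOBOP peaks and 85.4% ± 3.42 of the vehicle peaks (SD, n = 4 each; exact permutation p = 0.257), a difference of 3.79 points, or 2.08 without D4.

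Livers of one treatment were about as alike as livers of different treatments. The share of regions common to a pair of livers, out of those called in either, averaged 0.534 within TCPOBOP (0.521 to 0.547), 0.525 within vehicle (0.507 to 0.537) and 0.522 between treatments (0.465 to 0.547). With lists of equal length the averages were 0.561 within TCPOBOP (0.5523 to 0.5721), 0.548 within vehicle and 0.549 between treatments (0.5355 to 0.5617). The list most like that of a given liver belonged to the same treatment in 5 of 8 livers, with full lists and with lists of equal length. With equal lengths these 5 were D1 to D4 and C3. No list was a copy of another: over 28 pairs, the share of identical peaks was never above 0.0245%.

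Regions fell mainly into those found in a single liver and those found in every liver. A peak was found in 1 liver at 23571 regions, 15026 of them in a vehicle and 8545 in a TCPOBOP liver. At least 1 liver of each treatment had a peak at 35025 regions (55.1%). Regions called in a single liver made up 14.3% of the regions of C3, the longest list, and 3.24% of those of D4, the shortest. With equal lengths this share lay between 7.90% and 9.26% in all 8 livers. Just outside the definition of gained lay 92 regions with a peak in 1 vehicle liver and 139 with a peak missing in 1 TCPOBOP liver. Just outside the definition of lost lay 495 regions with a peak in 1 TCPOBOP liver and 735 with a peak missing in 1 vehicle liver.

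**Figure D2:**
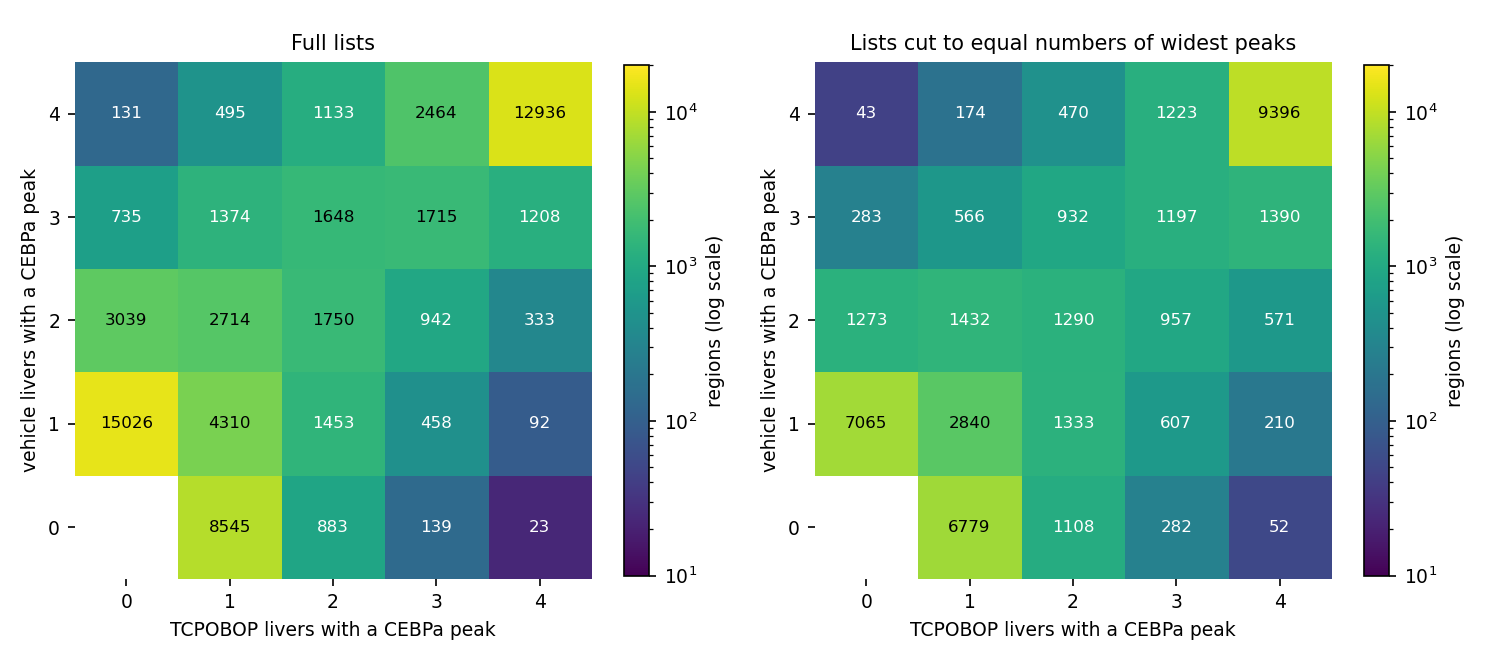
Number of CEBPa regions by the number of TCPOBOP livers (horizontal) and vehicle livers (vertical) with a peak, with full lists (left) and with every list cut to its 20396 widest peaks (right), on a log colour scale. The corner of all 8 livers holds 12936 and 9396 regions, and the corners of gained and lost regions hold 23 and 131 with full lists against 52 and 43 with lists of equal length.

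The more livers shared a CEBPa region, the wider its peaks were and the more often the other factors were there too. The median peak width went from 210 bp at regions of 1 liver to 310 bp at regions of all 8. A CEBPb peak in at least 1 of 8 livers was present at 58.2% of the regions of a single liver and at 100% of the regions of all 8. CEBPb was called in all 8 livers at 1.97% of the former and 98.5% (12744 regions) of the latter. For RXR in at least 1 liver the shares were 13.4% and 61.8%, and RXR was called in all 8 livers at 3172 (24.5%) of the regions where CEBPa was. CEBPa had been called in all 6 livers of 3 h at 11000 (85.0%) of those regions. At 2951 regions every list of both CEBP factors and RXR at 27 h and of CEBPa at 3 h had a peak. These counts share the same libraries and describe how the lists nest.

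**Figure D3:**
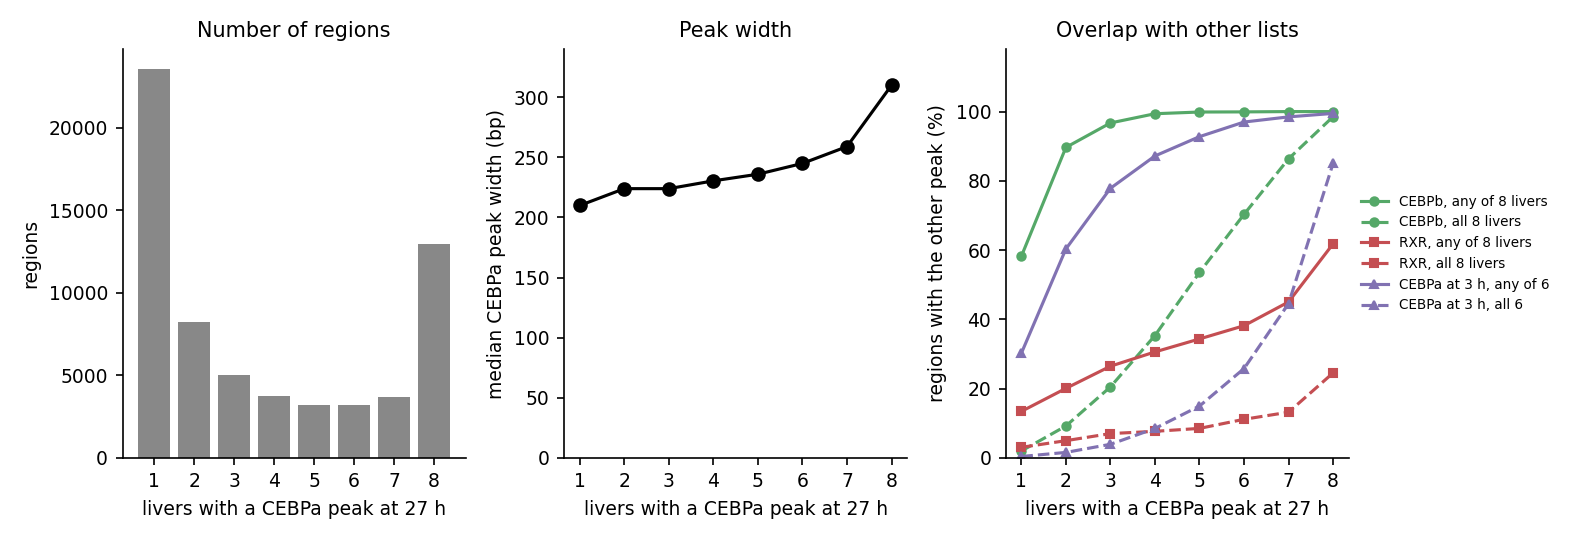
Number of regions (left), median CEBPa peak width in bp (middle) and percent of regions with a peak of another list (right), by the number of the 8 livers with a CEBPa peak. Width goes from 210 to 310 bp and CEBPb in any liver from 58.2% to 100%, while RXR in all 8 livers reaches 24.5%.

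Regions occupied in every liver were spread over all chromosomes. Chromosome 19 held 8.14 of them per Mb of the span between its first and last region, and the X chromosome 1.04 per Mb. Over all CEBPa regions the figures were 34.7 and 5.19 per Mb. The densest windows of 200 kb held 14 of these regions each, at chr15:59435835-59618620, chr3:137884095-138078369 and chr4:97418989-97586032 (mm9), and CEBPb was called in all 8 livers at each of the 14. RXR was called in all 8 livers at 4, 0 and 1 of them.

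The 23 gained regions had peaks of modest width. The median over them of the mean width percentile, a peak's rank by width within its own list, was 37.9, close to the 34.2 of all regions and below the 69.0 of regions of all 8 livers. By width percentile the first gained region was chr1:13193705-13194182 (mm9), with peaks of 400, 308, 413 and 297 bp in D1 to D4 and none in C1 to C4. It carried CEBPb and RXR peaks in all 8 livers, so only the CEBPa calls separated the treatments there. The region chr1:170973580-170973976 came next, with CEBPa peaks of 332, 271, 304 and 326 bp, CEBPb in 4 TCPOBOP and 2 vehicle livers, RXR in 2 TCPOBOP and 0 vehicle livers, and no CEBPa peak in any liver of 3 h. At chr2:117664177-117664551 (375, 326, 239 and 285 bp) CEBPb was called in all 8 livers, but RXR in 4 TCPOBOP livers and 1 vehicle liver. The same pattern of RXR was found at chr14:17939323-17939660, with CEBPa peaks of 338, 273, 254 and 232 bp.

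At 2 gained regions CEBPb appeared in the same livers as CEBPa. At chr3:113022802-113023178 (mm9) the CEBPa peaks of D1 to D4 were 208, 377, 216 and 254 bp wide, and CEBPb and RXR were each called in all 4 TCPOBOP livers and no vehicle liver. At chr12:14216600-14216971 the CEBPa peaks were 279, 208, 308 and 223 bp wide and CEBPb was again called in all 4 TCPOBOP livers and no vehicle liver, but RXR was called in all 8. These are 8.70% of the gained CEBPa regions and 0.604% of the 331 gained CEBPb regions. Over its own 92566 regions CEBPb gained 0.358%. The 1 region also gained for RXR is 4.35% of the gained CEBPa regions, and RXR gained 0.284% of its own 57725. These overlaps were not tested. Neither of the 2 regions was gained for CEBPa with lists of equal length or with only peaks of at least the median width. Of the other gained regions among the 10 with the widest peaks, chr2:102894414-102894792, chr9:30610427-30610810, chr12:113819342-113819642 and chr15:100826644-100826930 carried CEBPb in all TCPOBOP livers and in 3 or 4 vehicle livers.

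The 131 lost regions had similarly narrow peaks, with a median width percentile of 33.0. The one with the widest peaks for its lists was chr9:86846977-86847339 (mm9), with 341, 295, 322 and 333 bp in C1 to C4 and no peak in D1 to D4. CEBPb was called there in all 4 vehicle livers and 1 TCPOBOP liver, and RXR in 2 vehicle livers. The next, chr2:5743488-5743933, had CEBPa peaks of 313, 396, 260 and 339 bp in C1 to C4, with CEBPb and RXR in all 8 livers and CEBPa in all 6 livers of 3 h. The same was true of chr5:89061464-89061824, with 289, 285, 361 and 259 bp, so there too the CEBPa calls at 27 h were the only ones that followed treatment.

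CEBPb was called in at least 3 livers of each treatment at chr1:34294508-34295013, chr8:116063884-116064696, chr2:155467609-155467959, chr7:87028660-87029091, chr2:134870074-134870458 and chr3:118711550-118711962, all lost for CEBPa. The tenth by width, chr1:161438794-161439174, had CEBPb in 3 TCPOBOP livers and 1 vehicle liver. Of the 131 regions, 0 were also lost for CEBPb, which lost 0.0367% of its own regions. At 1 lost region, chr11:23426682-23427035, the calls of both factors were opposite, with CEBPa peaks of 238, 237, 194 and 270 bp in C1 to C4 only and CEBPb peaks in D1 to D4 only. RXR had no peak there, and neither had CEBPa at 3 h. Over its own regions CEBPb gained 0.358%, and this 1 region is 0.763% of the 131. At 1 other, chr2:118503625-118503879, RXR, which lost 0.232% of its own regions, was lost together with CEBPa while CEBPb was called in 4 vehicle and 3 TCPOBOP livers.

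Gained and lost regions were scattered over the genome. No window of 200 kb held more than 1 gained or 2 lost regions, and the closest pair, chr13:115058030-115058284 and chr13:115074198-115074539, both lost, lay 15.9 kb apart. The median distance to the nearest region occupied in all 8 livers was 39.6 kb for gained and 35.8 kb for lost regions. It was 42.3 kb for regions called in 2 livers of each treatment and 26.7 kb between regions occupied in all 8. No gained or lost region lay on a peak of an input control, where 0.534% of all regions did.

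The lists of the other factors were not used to define the gained and lost regions. They came from the same livers as the CEBPa lists, so they are not independent of the calls that defined these regions. CEBPb peaks lay at 22, 23, 21 and 22 of the 23 gained regions in D1 to D4 and at 19, 20, 17 and 16 in C1 to C4. Every TCPOBOP liver was above every vehicle liver, at 95.7% ± 3.55 against 78.3% ± 7.94 (SD, n = 4 each). At the 1750 regions with a CEBPa peak in 2 livers of each treatment, CEBPb was called at 83.3% ± 3.80 after TCPOBOP and 73.5% ± 5.00 after vehicle, and these groups did not overlap either. The difference in CEBPb calls was 17.4 percentage points at gained regions, 9.79 at the evenly split regions and 5.35 over all regions, where the groups overlapped. CEBPb lists were longer after TCPOBOP, with 45877 to 55513 peaks against 39275 to 47279, and the part of this in the difference was not tested.

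RXR calls of 27 h also separated the treatments at gained regions, and overlapped in each other class of CEBPa regions examined. RXR peaks lay at 13, 13, 10 and 12 of the 23 gained regions in D1 to D4 and at 7, 7, 8 and 8 in C1 to C4. Again every TCPOBOP liver was above every vehicle liver, at 52.2% ± 6.15 against 32.6% ± 2.51 (SD, n = 4 each). At the evenly split regions RXR was called at 15.9% ± 3.11 after TCPOBOP and 16.2% ± 2.97 after vehicle, and over all regions at 18.2% ± 2.88 and 18.5% ± 2.43, with the groups overlapping in both. More TCPOBOP than vehicle livers had an RXR peak at 9 gained regions, fewer at 2, and as many at 12. At the 131 lost regions these numbers were 10, 15 and 106. No such count is given over all regions, so these numbers have no background to be read against. The number of RXR regions gained and lost in these livers was 164 (0.284%) and 134 (0.232%) of 57725. The rates at gained regions were not tested, and the 23 regions are few.

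At the lost regions the livers of both treatments overlapped for both factors. CEBPb peaks lay at 111, 108, 93 and 105 of the 131 lost regions in D1 to D4 and at 103, 109, 91 and 100 in C1 to C4, so the livers of both treatments were mixed in order. The means were 79.6% ± 6.02 and 76.9% ± 5.73 (SD, n = 4 each). This difference of 2.67 points was smaller than the 9.79 at evenly split regions and the 5.35 over all regions, and the gap between these differences was not tested. CEBPb was called in all 8 livers at 50 lost regions (38.2%), near the 36.9% of all regions and the 34.5% of evenly split regions. In no liver was it called at 2 lost regions. At least 1 liver had it at 98.5% of lost regions, against 82.85% of all regions and 99.4% of evenly split regions. RXR was called at 19.3% ± 3.08 and 21.0% ± 2.53 (SD, n = 4 each), overlapping, and in no liver at 87 of the 131 (66.4%), near the 69.7% of all regions. In the same livers CEBPb gained 331 and lost 34 of its own 92566 regions, 0.358% and 0.0367%. The CEBPa counts leaned the other way with full lists and not with lists of equal length (52 gained, 43 lost), and the difference between the factors was not tested.

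**Figure D4:**
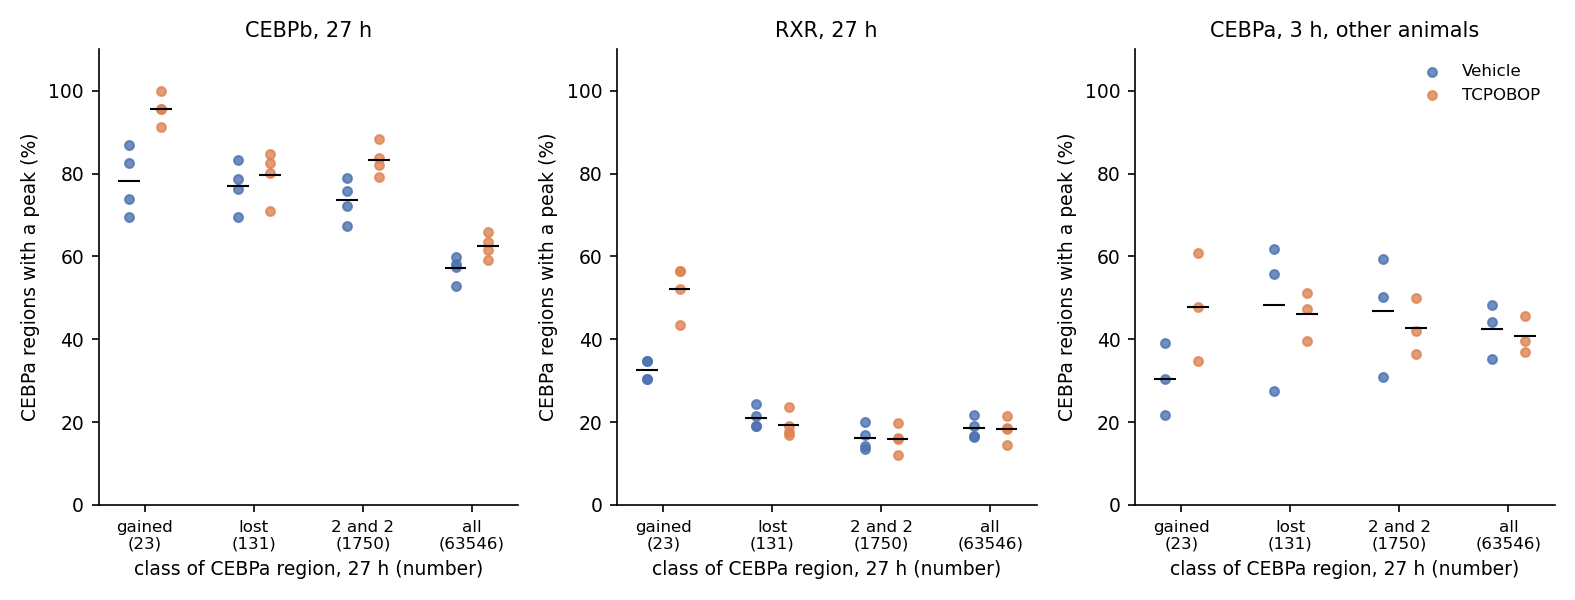
Percent of CEBPa regions with a CEBPb peak (left), an RXR peak (middle) or a CEBPa peak at 3 h in other animals (right), for gained, lost and evenly split regions and for all regions, with 1 point per liver and a line at the mean. At gained regions the TCPOBOP livers lie above all vehicle livers for CEBPb and RXR, and at lost regions the livers of both treatments mix in every panel.

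In the 3 h livers, which were other animals, CEBPa was called at 8, 14 and 11 of the 23 gained regions after TCPOBOP and at 5, 7 and 9 after vehicle. The means were 47.8% and 30.4%, against 40.7% and 42.6% over all regions. The groups overlapped, at 34.8% to 60.9% and 21.7% to 39.1% of these regions. No gained region had a CEBPa peak in all 6 livers of 3 h, where 8.51% of evenly split regions and 23.1% of all regions did. At 4 gained regions it was in none of the 6. At least 1 of the 6 had it at 82.6% of gained regions, against 86.7% of evenly split regions and 65.75% of all regions. At lost regions the 3 h rates were 46.1% ± 5.83 and 48.4% ± 18.3 (SD, n = 3 each), near the 42.8% and 46.8% at evenly split regions. RXR at 3 h, in other livers too, was called at 52.2% ± 11.5 of gained regions after TCPOBOP and 40.6% ± 18.1 after vehicle (SD, n = 3 each). These groups overlapped, at 39.1% to 60.9% and 26.1% to 60.9%, and the means over all regions were 22.1% and 21.35%.

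The balance of gained and lost regions depended on list length. With every list cut to its 20396 widest peaks, 52 regions were gained (0.125% of 41473) and 43 were lost (0.104%). Only 6 gained and 8 lost regions were so with both kinds of list. Of the 52, a peak had been present in at least 1 vehicle liver at all but 6 with full lists, and in all 4 vehicle livers at 5. Without D4, 99 regions were gained and 173 lost, and with D4 left out and the other lists cut to 26145 peaks, 144 were gained and 109 lost. A Fisher's exact test for each region, 4 against 4 livers, cannot go below p = 0.0286, and its smallest adjusted p was 1 over 63546 regions, with 0 regions past the threshold, and the 23 gained and 131 lost regions were those at an unadjusted p below 0.05.

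The separation of RXR calls at gained regions was present with both of these changes. At the 52 regions gained with lists of equal length, RXR was called at 36.1% ± 7.43 after TCPOBOP (28.8% to 44.2%) and 22.1% ± 4.00 after vehicle (17.3% to 26.9%; SD, n = 4 each). At the 99 regions gained without D4 the RXR rates were 26.3% ± 5.35 (SD, n = 3) and 14.6% ± 3.14 (SD, n = 4), again without overlap. CEBPb behaved otherwise. Its rates were 98.1% ± 1.57 and 94.7% ± 1.84 at the 52 regions (SD, n = 4 each), where the groups met, and 87.5% ± 4.55 (SD, n = 3) and 62.4% ± 5.24 (SD, n = 4) at the 99, where they did not overlap. At lost regions both factors overlapped between treatments with each change. RXR was called at 22.1% ± 4.84 after TCPOBOP and 29.1% ± 4.03 after vehicle at the 43 regions lost with lists of equal length (SD, n = 4 each), with ranges of 16.3% to 27.9% and 25.6% to 32.6%.

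Among the 12936 regions occupied in all 8 livers, the width of the peak was compared as the only measure that the lists give for a bound site. A limma fit on log2 width, centred per list, put 2 regions past an adjusted p of 0.05, both narrower after TCPOBOP (0.0155%), and 0 wider (0%). At an unadjusted p below 0.05 there were 713 regions (5.51%), 399 narrower and 314 wider. Without D4, 6 regions passed, and without C1, 1 did. The middle 90% of the log2 differences lay between -0.26 and 0.22. In simulated data the test recovered 90% of 200 regions changed by 1 on the log2 scale and 43% of those changed by 0.5.

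The clearest change was at chr10:127638695-127639294 (mm9). The CEBPa peak was 546, 580, 568 and 586 bp wide in C1 to C4. It was 278, 253, 281 and 210 bp wide in D1 to D4, so the widest TCPOBOP peak was narrower than the narrowest vehicle peak. Width was 2.16 times as high after vehicle, a log2 difference of -1.11 (SE 0.09; limma adjusted p = 0.00457). The right edges lay within 127639252 to 127639294 in all 8 livers, and the left edges lay at 127638695 to 127638735 after vehicle and at 127638972 to 127639049 after TCPOBOP. The stretch chr10:127638735-127638971, 237 bp long, was thus inside a CEBPa peak in every vehicle liver and in no TCPOBOP liver.

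The widths of the other lists overlapped between treatments at that site. CEBPb peaks were 624, 587, 598 and 497 bp wide in C1 to C4 and 402, 610, 298 and 513 bp in D1 to D4. RXR peaks were 510 to 640 bp after vehicle and 428 to 549 bp after TCPOBOP, and CEBPa peaks at 3 h were 368 to 573 bp and 464 to 555 bp. CEBPb peaks covered 0.5 or more of the 237 bp in 4 vehicle livers and 2 TCPOBOP livers. In the labels the 8 CEBPa libraries share a sequencing lane.

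The second region past the threshold was chr5:65758969-65759583 (mm9), with peaks of 543, 561, 562 and 573 bp in C1 to C4 and 313, 270, 291 and 340 bp in D1 to D4. The groups lay far apart, with a log2 difference of -0.83 (SE 0.09; limma adjusted p = 0.0458). This call was kept in 4 of 13 alternative settings, against 12 of 13 for the region on chromosome 10. The left part was again the one that was missing, at chr5:65759011-65759195. The third by p was chr2:38418695-38419450, with a log2 difference of -0.82 (limma adjusted p = 0.119).

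The region that was wider after TCPOBOP with the lowest p was chr8:88011894-88012881 (mm9). Its CEBPa peaks were 305, 288, 298 and 327 bp wide in C1 to C4 and 616, 638, 628 and 988 bp in D1 to D4. All TCPOBOP peaks were wider than all vehicle peaks, and D4 was the widest. The log2 difference was 1.27 (SE 0.16; limma adjusted p = 0.0989), and without D4 it was 1.08 and passed the threshold (limma adjusted p = 0.00273). CEBPb peaks were wide there in all livers but C3, at 608, 654, 287 and 634 bp in C1 to C4 and 906, 645, 678 and 629 bp in D1 to D4. At 3 h CEBPa was wide in vehicle livers too, at 602 to 707 bp, against 338 to 643 bp after TCPOBOP. The next regions by p, chr17:46862691-46863637 and chr13:4383241-4383722, had log2 differences of 0.57 and 0.78 (limma adjusted p = 0.119 and 0.195).

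**Figure D5:**
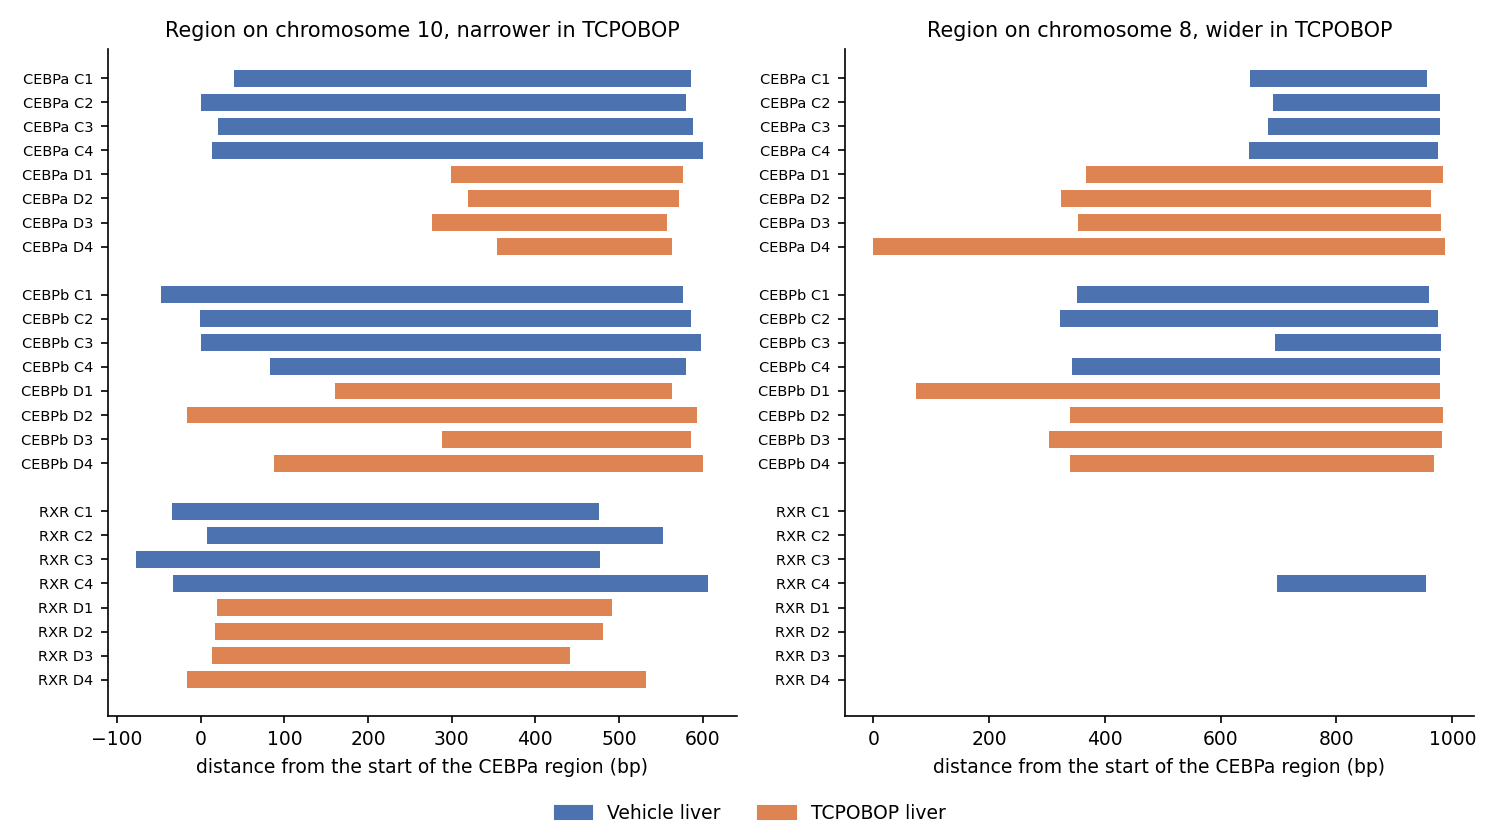
Extent of each peak at the region on chromosome 10 that was narrower after TCPOBOP (left) and at the region on chromosome 8 that was wider (right), as distance in bp from the start of the CEBPa region, for CEBPa, CEBPb and RXR in the 8 livers at 27 h. On chromosome 10 the left part is missing from the CEBPa peaks of D1 to D4 and, in part or whole, from the CEBPb peaks of C4, D1, D3 and D4, but is covered by the RXR peaks, and on chromosome 8 the part covered by CEBPa in D1 to D4 alone is covered by CEBPb in C1, C2 and C4 too.

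Stretches of at least 100 bp that were covered in all livers of one treatment and in none of the other were also sought inside larger regions. There were 29 such stretches in the TCPOBOP direction and 132 in the vehicle direction, 0.0456% and 0.208% of the number of regions. With lists of equal length there were 53 and 52. Of the 29, 23 were in the gained regions, 2 in regions occupied in all 8 livers and 4 in others. Of the 132, 120 were in lost regions, 4 in regions occupied in all 8 livers and 8 in others. The 2 in regions of all 8 livers in the TCPOBOP direction were those on chromosomes 8 and 17 named above. Of the 4 in the vehicle direction, 3 were at the regions named on chromosomes 10, 5 and 2, and the fourth was at chr11:72094918-72095100. CEBPb peaks covered 0.5 or more of it in 4 vehicle and 2 TCPOBOP livers, and RXR peaks in 3 and 4.

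The 5 regions of all 8 livers with the widest mean peaks included 3 on the Y chromosome. The region chrY:2779722-2783996 (mm9) had peaks of 3132 to 3759 bp in the 8 livers, chrY:2890328-2892725 had peaks of 1325 to 2195 bp, and chrY:1789191-1791055 had peaks of 1073 to 1816 bp. These lay on peaks of 4, 4 and 3 of the 4 input controls. The third by mean width, chr14:41935848-41937586, had no input peak and was 1529 to 1739 bp wide. Of all regions occupied in the 8 livers, 116 (0.897%) lay on an input peak.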

How the data were processed

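Chromatin of individual livers was precipitated with antibodies to CEBPa, CEBPb or RXRa, per the labels' protocols. Bowtie2 2.3.2, MACS2 and mm9 are named per the submitters' processing notes, while for MACS2 no version or setting is given in the sources used here. Each file that the authors deposited is the peak list of 1 liver, with chromosome, start, end and name and no score, fold or p-value. Depth is unknown, so no intervals are given. Starts were raised by 1 to count positions from 1.

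Peak lists were merged into regions as described, and width percentiles were ranks within a list. List measures were compared in two-sided exact permutation tests over livers with Benjamini-Hochberg adjustment over 7 measures. Width at regions occupied in all 8 livers was tested with limma 3.58.1 (R 4.3.3) on log2 bp, adjusted over 12936 regions, threshold 0.05. The functions were checked on simulated data. Nothing in the labels pairs livers by number, and deviations of same-numbered livers correlated at -0.01 to 0.01. The permutation p-values measure the spread between these 4 livers per group. The limma p-values also draw on the spread pooled over the 12936 regions.

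Regions named were the 10 gained and 10 lost with the highest mean width percentile, the 5 widest occupied in all 8 livers, the width changes past the threshold or the 3 with the lowest p in each direction, and those gained or lost by another factor too. The closest pair, the densest windows and the regions on chromosome 11 were picked with their values in view. The members and rules were chosen with earlier results of these data known. Alternatives were lists of equal length, other overlaps, no input peaks, wider peaks only, left-out livers, other centring and a replicate block. Gene names, gene lists, motifs and sequences need mm9 files and were not analysed here. The lists hold no expression, so the tissue was not checked against marker genes. Calculations used scipy 1.17.1, numpy 2.4.6 and pandas 2.3.3 in Python 3.11.15.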

Additional observations from a re-analysis of the deposited data

Results flagged for a closer look

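The TCPOBOP liver D4 lay far from the other TCPOBOP livers in 4 of 34 groups of 4 livers examined, which included vehicle groups. Chance alone gives about 1 in 20 groups. List length, base pairs covered and the share with 3 h peaks describe the same list, so they are not separate trials. The CEBPa list of D4 held 20396 peaks, against 28818 to 29066 in D1 to D3, and covered 5.75 Mb, against 8.04 to 8.31 Mb. A CEBPa peak at 3 h was present at 94.3% of its peaks, against 87.2% to 88.0%. Its peak at chr8:88011894-88012881 (mm9) was 988 bp wide, against 616 to 638 bp. List measures and counts of regions are given with and without D4, and the reason it stood apart was not tested.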

How the results depend on the processing

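The counts of gained and lost regions moved most. Lists of equal length gave 52 gained and 43 lost regions, only peaks of at least the median width gave 64 lost regions and 5843 occupied in all 8 livers, and 1 exception allowed per group gave 712 gained and 2735 lost. With D4 left out and the other lists cut to 26145 peaks, a choice made after seeing the data, 144 regions were gained and 109 lost. Leaving out 1 liver at a time gave 36 (without C1) to 99 (without D4) gained, 173 (without D4) to 431 (without C1) lost and 13071 to 14325 in all others, fewer livers being needed for each class. Input peaks and a merging overlap of 100 bp changed no count by over 1.5 times. Of the named regions, 6 of 10 gained and 6 of 10 lost stayed so with lists of equal length, and 2 and 1 with peaks of at least the median width. The named regions were chosen by width, which both of these settings favour. Of all such regions, 6 of 23 gained and 8 of 131 lost stayed so with lists of equal length. The limma count of 2 regions was 1 with trend and robust moderation, 3 (2 narrower, 1 wider) with quantile normalisation, and 1 (without C1) to 6 (without D4) with 1 liver left out. With the replicate block, as covariate, it was 0, with adjusted p = 0.143 on chromosome 10 and 0.352 on chromosome 5; the block on list measures gave exact p of 0.125 at the least, the smallest that 4 sign flips allow, for a difference of 8.25 points in CEBPb share. The median width difference reversed to 0.00682 (log2) without C4 and ranged from -0.0218 to 0.00682; the cause was not tested. For the 7 list measures the exact permutation test cannot go below 0.0571 with 1 liver left out. Those settings and the block could therefore not pass the threshold, so their misses do not tell for or against a difference. Other list differences kept their direction and missed the threshold in all settings. With 1 liver left out, they ranged from -0.35 to -0.14 (log2 peaks), -0.38 to -0.15 (log2 bp), 0.34 to 0.56 (log2 CEBPb per CEBPa), 5.81 to 10.2 (CEBPb), 0.656 to 4.79 (RXR) and 2.08 to 5.02 (3 h CEBPa) percentage points, and -0.31 to -0.04 for the difference between times. Signal under the peak caller's threshold is not visible in these lists, and depth is unknown.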

Other observations

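Of the 12936 regions with a CEBPa peak in all 8 livers at 27 h, 68 (0.526%) had none in any of the 6 livers of 3 h, which were other and younger animals on another flow cell. Of the 68, 65 carried CEBPb in all 8 livers of 27 h (95.6%, near the 98.5% of the 12936 regions). CEBPb was in no list of 3 h at 59 of them (86.8%, against 1.38% of the 12936), and RXR was in no list of 27 h at 54 (79.4%, against 38.2%). None lay on an input peak, where 0.897% of the 12936 did. The inputs were 3 h livers and these regions were chosen for lacking 3 h peaks, so this does not speak to the 27 h libraries. A mean width percentile of at least 90 was found at 22 of the 68 (32.4%, against 9.91%). The widest were chr14:41935848-41937586 (mm9), with a mean of 1645 bp, chr15:3229124-3230463 with 1303 bp and chr3:82834796-82836087 with 1210 bp. At chr19:44469090-44471527, also among them, the peaks were 1544, 2053, 673 and 485 bp wide in C1 to C4 and 1199, 1000, 2349 and 1250 bp in D1 to D4, so single livers differed widely within both treatments. In the other direction, 39 of 14658 regions called in all 6 livers of 3 h had no peak in any of the 8 livers of 27 h. Time, age and flow cell cannot be told apart.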
